A study of Mus musculus with 4 samples.

Results

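The tumour necrosis factor (TNF) ligand and receptor superfamilies, with the TRAF adaptor proteins that carry their signal, were examined in Dalton's lymphoma ascites (DLA) cells after irradiation of the host. All probe sets whose platform annotation lists a symbol of the Tnfsf or Tnfrsf series, or Tnf, Lta, Ltb, Ltbr, Cd40, Cd40lg or a TRAF from Traf1 to Traf6, were taken. This gave 41 of the 23410 probe sets with a gene symbol. Of these, 40 listed 1 gene each and were tested among 19938 genes, and 1 listed several genes. The rule used gene names and no measured value. Traf3 is not analysed here.

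DLA cells are passaged from mouse to mouse and multiply suspended in ascites fluid. The hosts were male Swiss albino mice 4 to 5 months old. The irradiated group received 2 Gy of electron radiation to the whole body on day 8 after transplantation of the cells, and the cells were collected 48 h later. The control group carried the same tumour and was not irradiated. Each group had 2 arrays, labelled as biological replicates 1 and 2, and the labels do not say whether an array held the cells of 1 mouse or of several. The p-values rest on the spread between these arrays alone, with each gene's own spread combined in limma with that of all genes. The number of arrays limits the precision.

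Ligands of the TNF superfamily are trimeric proteins of the cell surface, many of which can also be shed in soluble form. Their receptors pass the signal in different ways. Receptors with a death domain can recruit adaptors that start cell death, while the other signalling receptors bind TRAF proteins, which activate NF-kB and the JNK kinases. Decoy receptors bind a ligand without passing a full signal. In lymphoid tumours and in the peritoneal cavity the family is known for control of lymphocyte survival, of macrophage activation and of inflammation.

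The arrays were alike in scale, with medians between 6.43 and 6.46 over all rows (log2 intensity). The irradiated arrays lay further apart than the control arrays, with an SD of the replicate difference over all genes of 0.362 against 0.167 (log2). The labelled cell type was not borne out by lymphocyte markers. All 9 measured T cell markers and all 7 measured B cell markers had mean levels below the median of all genes (log2, a position that also depends on the probes). Ptprc, the leukocyte common antigen, measured 5.63 and 5.64 in control and 5.57 and 5.49 in irradiated arrays (log2), also below the median gene. Of the 9 pan-leukocyte genes, 6 lay below the median gene, while Lcp1, Arhgdib and Srgn lay above it, with levels up to 11.96, 11.8 and 9.89. Krt8, a keratin of simple epithelia, measured 14.07 and 14.11 in control and 13.93 and 13.30 in irradiated arrays. The cells are therefore called by their label, DLA cells, without a cell lineage.

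Across the family, Traf1 and Tnfsf15 were higher in irradiated than in control cells by 2.43-fold and 2.01-fold, and no other member was called. A gene was called here when its unadjusted p in limma was under 0.05 and its difference at least 1.5-fold. By this rule 2 of 40 members were called higher and 0 lower in irradiated cells. Over all genes tested the same rule called 1.7% higher and 0.672% lower. At an unadjusted p under 0.05 alone, 3 of 40 members were higher and 0 were lower in limma, against 5.21% and 5.1% of all genes, and 3 in either direction against 10.3%, so the share of members past this limit was not above the background. Of the members, 2 differed by at least 1.5-fold in either direction, against 2.95% of all genes. No member passed an adjusted p of 0.05 in limma (0 of 40), a limit that 0.00502% of all genes passed. The median log2 difference was 0.02 over members and −0.03 over all genes, and 22 members had a positive and 18 a negative difference, against 43.4% and 55.4% of all genes. Quantile normalization or centring of the arrays made this 23 and 17, the 1 member that turned sign being Tnf. The median of all genes moved too, to −0.0175 and 0.005, and the signs of all genes were not counted under these scalings.

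Read array by array, 9 of 40 members had both irradiated values above both controls and 7 had both below, against 17.8% and 23.9% of all genes. For the other 24 members the groups overlapped, against 58.3% of all genes. With quantile normalization the counts were 11 above and 7 below, and with centring 11 and 6. The shares of all genes under these scalings are not given, so a change of the counts cannot be assigned to the members. By size, the member nearest below the 1.5-fold limit was Tnfsf8, with a log2 difference of 0.525, and the one just above it was Tnfsf15 with 1.005. By unadjusted p in limma, Tnfrsf1b was the last inside the limit (0.0157) and Tnfrsf25 the first outside it (0.0764).

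**Figure D1:**
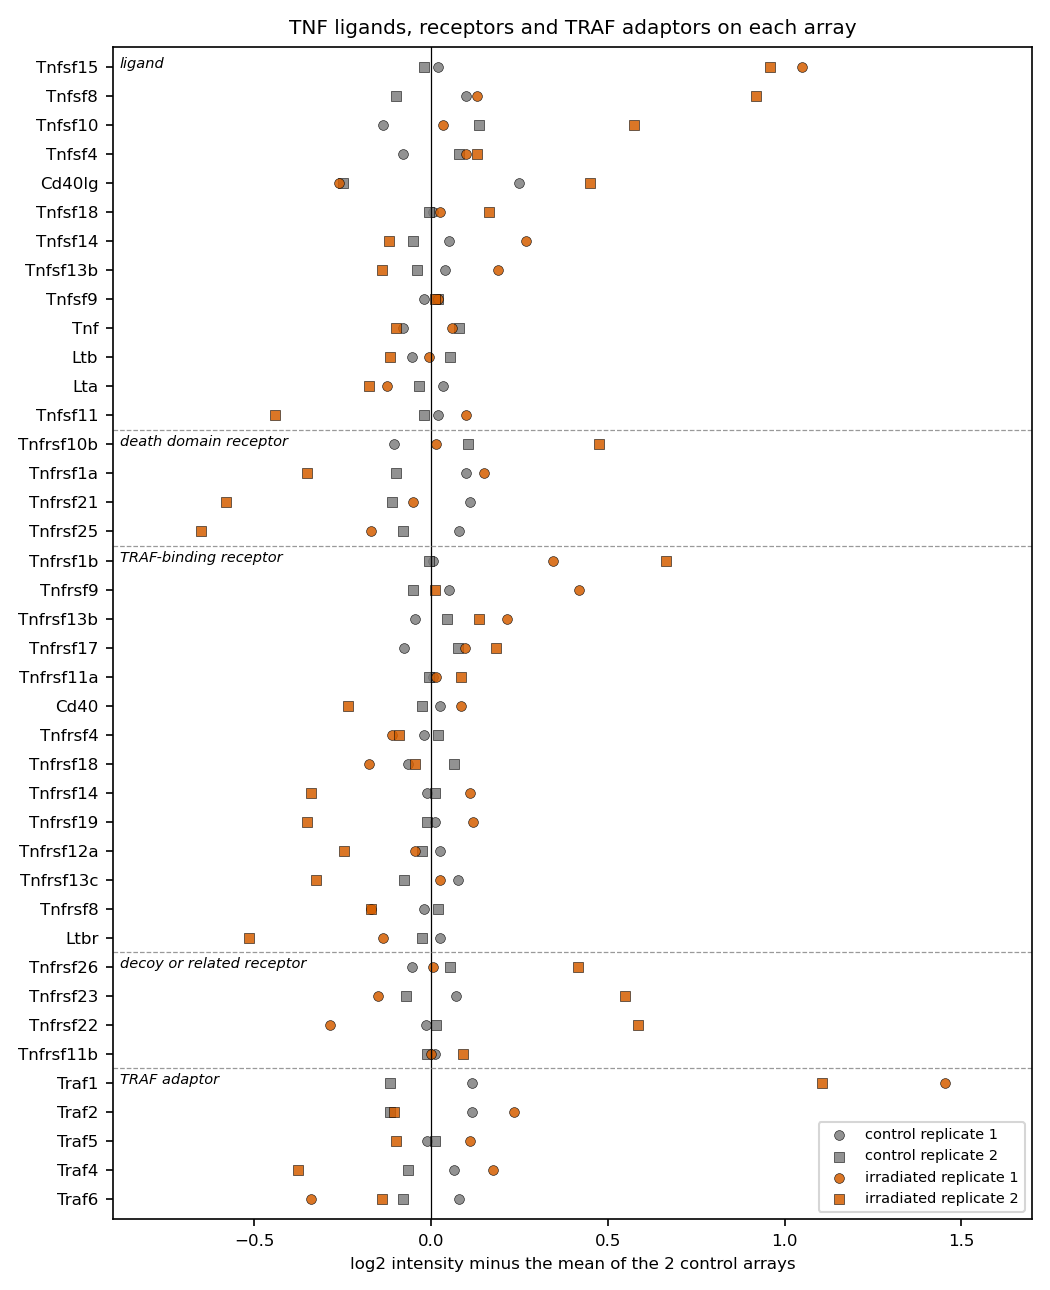
Log2 intensity of the 40 members on each array minus the mean of the 2 control arrays, grouped by role and ordered by the mean difference; grey points are control and orange points irradiated arrays, circles replicate 1 and squares replicate 2. Traf1 and Tnfsf15 lie between 0.96 and 1.455 above the control mean on both irradiated arrays, while for 24 of 40 members the groups overlap.

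Traf1 encodes an adaptor that binds TNF receptor 2 through TRAF2 and is itself a known NF-kB target. It measured 7.41 and 7.18 in control and 8.75 and 8.40 in irradiated arrays (log2). Both irradiated arrays lay above both controls, by more than either group's spread. The difference was 2.43-fold, from 7.295 ± 0.163 to 8.575 ± 0.248 (log2, SD, n = 2 arrays each). On the log2 scale this was 1.28 ± 0.17 (standard error), with a limma unadjusted p of 0.000402 and an adjusted p of 0.222. The adjusted p in limma ranged from 0.116 to 0.998 over the alternatives run. In fits of 3 arrays the difference ran from 1.165 without control replicate 2 and 1.105 without irradiated replicate 1 to 1.455 without irradiated replicate 2.

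None of the other 4 TRAF adaptors was called. Traf2, the central adaptor of TNF receptors, measured 9.31 and 9.08 in control and 9.43 and 9.09 in irradiated arrays (log2). The groups overlapped, and the 95% interval of the log2 difference ran from −0.35 to 0.48. Traf5, a relative of Traf2 in lymphotoxin and CD40 signalling, measured 6.41 and 6.43 against 6.53 and 6.32 and overlapped too. Traf6, which also serves interleukin 1 and Toll-like receptors, measured 9.48 and 9.32 in control and 9.06 and 9.26 in irradiated arrays. Both irradiated values of Traf6 were below both controls, but its log2 difference of −0.24 had a 95% interval from −0.58 to 0.10. Traf4, an adaptor of epithelial and developmental signalling, had a log2 difference of −0.10 with overlapping groups.

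Among the ligands, 1 of 13 was called. Tnfsf15 encodes TL1A, a ligand of the death domain receptor DR3. It measured 6.68 and 6.64 in control and 7.71 and 7.62 in irradiated arrays (log2). The replicates of each group lay close together, and the groups were well apart. The difference was 2.01-fold, from 6.66 ± 0.03 to 7.665 ± 0.064 (log2, SD, n = 2 arrays each), with a log2 standard error of 0.11 (limma unadjusted p = 0.00019 and adjusted p = 0.193). The adjusted p in limma ranged from 0.102 to 0.998 over the alternatives run. In fits of 3 arrays its log2 difference stayed between 0.96 and 1.05.

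Of the members, 32 had a start site in the RefSeq promoter table (GRCm38.p6), with 36 windows in all. The 250 bases before each start were searched on both strands for the NF-kB binding consensus, known as the kappaB motif, and for the AP-1 motif TGANTCA. The kappaB motif was found in 4 of 36 windows (of Ltb, Tnfrsf8, Tnfrsf9 and Tnfrsf25), or 11.1%, against 7.25% of 32851 windows of all genes. AP-1 was found in 4 windows (of Tnfrsf8, Tnfrsf9, Tnfsf13b and Tnfsf14), or 11.1%, against 6.75%. Counted by gene, each motif was found for 4 of 32 members, or 12.5%, against 8.23% and 7.82% of 27025 genes. The windows of the called members Traf1 and Tnfsf15 are shown because these were the genes whose levels stood apart, and one of Tnfrsf9 because it held both motifs. Both motifs were also found for Tnfrsf8, which is not shown. The Traf1 window is chr2:34961773-34962022 (minus strand), that of Tnfsf15 is chr4:63745060-63745309 (minus strand) and that of Tnfrsf9 is chr4:150927749-150927998 (plus strand). Capitals mark matches of either motif, and each sequence runs 5′ to 3′ on the strand of the gene and ends at the base before the start.
Traf1: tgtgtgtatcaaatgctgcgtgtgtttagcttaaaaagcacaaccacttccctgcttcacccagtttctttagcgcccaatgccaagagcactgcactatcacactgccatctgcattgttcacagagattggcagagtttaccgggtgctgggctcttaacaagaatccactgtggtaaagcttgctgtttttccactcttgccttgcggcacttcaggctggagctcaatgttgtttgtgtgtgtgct
Tnfsf15: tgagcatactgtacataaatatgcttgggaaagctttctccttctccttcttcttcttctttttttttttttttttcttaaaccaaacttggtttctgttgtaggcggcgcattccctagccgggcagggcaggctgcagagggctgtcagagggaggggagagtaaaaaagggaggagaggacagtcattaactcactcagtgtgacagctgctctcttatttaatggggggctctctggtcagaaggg
Tnfrsf9: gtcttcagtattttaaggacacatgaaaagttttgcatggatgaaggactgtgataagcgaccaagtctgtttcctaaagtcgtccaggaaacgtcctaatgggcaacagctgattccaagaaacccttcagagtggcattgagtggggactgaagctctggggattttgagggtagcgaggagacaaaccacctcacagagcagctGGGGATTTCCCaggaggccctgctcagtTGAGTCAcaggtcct

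In the Tnfrsf9 window a run of 11 bases holds 2 overlapping kappaB matches, the first starting 43 bases before the start site, and an AP-1 match starts 15 bases before it. The letters of neither motif occur in the windows of Traf1 and Tnfsf15, which says nothing of sites outside them. Tnfrsf9 measured 8.32 and 8.22 in control and 8.69 and 8.28 in irradiated arrays, and was not called. The other genes with a kappaB match, Ltb, Tnfrsf8 and Tnfrsf25, had log2 differences of −0.06, −0.17 and −0.41. A match describes these letters and is not a bound site.

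Tnfsf8, the CD30 ligand, is the next protein-coding gene to Tnfsf15 in the RefSeq annotation. It measured 4.02 and 3.82 in control and 4.05 and 4.84 in irradiated arrays (log2). The mean level of Tnfsf8 lay at percentile 8.1 of all genes tested, so it was among the dim genes. Only irradiated replicate 2 was clearly higher, replicate 1 lying 0.13 above the control mean and replicate 2 lying 0.92 above it. Its log2 difference of 0.525 had a standard error of 0.27 (limma unadjusted p = 0.104).

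The founding ligands of the family were not called. Tnf, the inflammatory cytokine that names the family, measured 5.98 and 6.14 in control and 6.12 and 5.96 in irradiated arrays (log2). The groups overlapped, with a log2 difference of −0.02 and a 95% interval from −0.34 to 0.30, which is a ratio of irradiated to control between 0.788 and 1.23. Lta, lymphotoxin alpha, measured 5.76 and 5.69 against 5.6 and 5.55, with both irradiated values below both controls (log2 difference −0.15, 95% interval −0.43 to 0.13). Ltb, lymphotoxin beta, measured 5.98 and 6.09 against 6.03 and 5.92 and overlapped.

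Ligands with roles in death and bone signalling were likewise not called. Tnfsf10, the death ligand TRAIL, measured 4.83 and 5.10 in control and 5.00 and 5.54 in irradiated arrays (log2), with the highest value on irradiated replicate 2 and overlapping groups. Tnfsf11, the osteoclast factor RANKL, measured 7.14 and 7.10 against 7.22 and 6.68, again with irradiated replicate 2 as the array that departs. Tnfsf9, the 4-1BB ligand, measured 5.12 and 5.16 against 5.16 and 5.15. These 4 values lay within 0.04 of each other, and its 95% interval ran from −0.26 to 0.29. The remaining ligands Tnfsf4, Tnfsf18, Cd40lg, Tnfsf14 and Tnfsf13b had log2 differences between 0.025 and 0.115. One probe set listing Tnfsf12, Tnfsf13 and their read-through transcript Tnfsfm13 measured 6.58 and 6.69 in control and 6.67 and 6.31 in irradiated arrays, and its signal cannot be assigned to 1 gene.

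**Figure D2:**
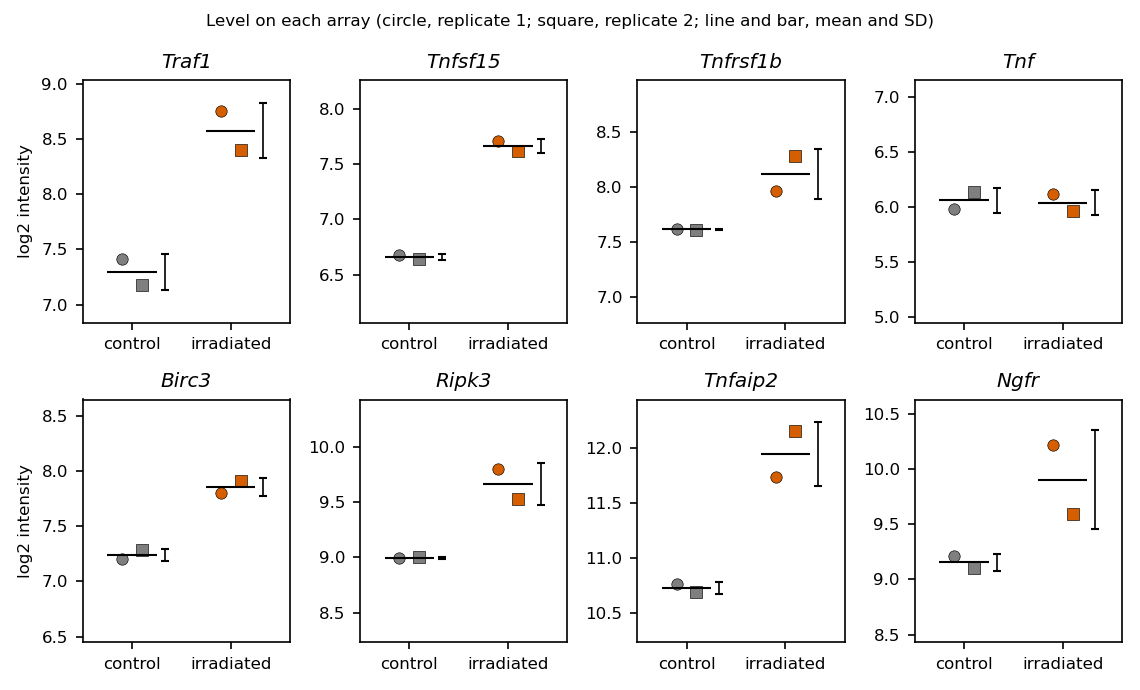
Log2 intensity of 8 genes on each array, with control arrays in grey and irradiated arrays in orange; circles are replicate 1, squares replicate 2, horizontal lines the mean and bars the SD of 2 arrays, and every panel spans the same range of log2 units. Irradiated arrays lie above control arrays for every gene drawn except Tnf, whose groups overlap. The genes other than Tnf had passed an unadjusted p under 0.05 in limma as higher on these same arrays, so their position follows from the choice.

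The receptors gave 1 member past the unadjusted limit. Tnfrsf1b, which encodes TNF receptor 2, measured 7.62 and 7.61 in control and 7.96 and 8.28 in irradiated arrays (log2). Both irradiated arrays were higher, replicate 2 more so, and the control arrays were nearly equal. In log2 terms the gap was 0.505 ± 0.15 (standard error), or 1.42-fold, with limma unadjusted p = 0.0157 and adjusted p = 0.424. Without control replicate 1 or 2 the unadjusted p in limma was 0.0967 and 0.101, so it no longer passed, while the log2 difference was 0.51 and 0.50, about as with all arrays. A higher level per cell and a larger share of expressing cells cannot be told apart in these bulk samples, for this or any other gene.

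Among other receptors that bind TRAF proteins, none was called (0 of 14, Tnfrsf1b included). Tnfrsf9, the costimulatory receptor 4-1BB, measured 8.32 and 8.22 in control and 8.69 and 8.28 in irradiated arrays (log2), so only irradiated replicate 1 was above the controls. Cd40, the costimulatory receptor of antigen-presenting cells, measured 6.95 and 6.90 against 7.01 and 6.69 and overlapped. Ltbr, the lymphotoxin beta receptor, measured 7.70 and 7.65 against 7.54 and 7.16. Both irradiated values of Ltbr were lower, with a log2 difference of −0.325 and a 95% interval from −0.72 to 0.07. Tnfrsf12a, the TWEAK receptor Fn14, measured 10.44 and 10.39 against 10.37 and 10.17, a log2 difference of −0.145 (95% interval −0.46 to 0.17).

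The other members of this class were Tnfrsf4, Tnfrsf8, Tnfrsf11a, Tnfrsf13b, Tnfrsf13c, Tnfrsf14, Tnfrsf17, Tnfrsf18 and Tnfrsf19, many of them costimulatory or survival receptors of lymphocytes. Their log2 differences lay between −0.17 for Tnfrsf8 (CD30) and 0.175 for Tnfrsf13b (TACI). Over the whole class 9 of 14 differences were negative.

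Of the 4 death domain receptors, 3 had negative differences and none was called. Tnfrsf25, which encodes DR3, measured 6.01 and 5.85 in control and 5.76 and 5.28 in irradiated arrays (log2). Both irradiated values were lower, replicate 2 by most, and the log2 difference of −0.41 had a 95% interval from −0.88 to 0.06 (limma unadjusted p = 0.0764). Tnfrsf21, encoding DR6, measured 7.36 and 7.14 against 7.20 and 6.67, with replicate 1 within the control range.

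Tnfrsf1a, the main receptor for soluble TNF, measured 9.18 and 8.98 in control and 9.23 and 8.73 in irradiated arrays (log2). Its irradiated arrays lay on either side of the controls. Tnfrsf10b, the mouse TRAIL receptor and a known p53 target, measured 9.91 and 10.12 against 10.03 and 10.49, with overlapping groups. Its log2 difference of 0.245 had a 95% interval from −0.23 to 0.72, so an increase of up to 1.64-fold is within the precision of these arrays.

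The 4 decoy and related receptors were all highest on irradiated replicate 2, and in each the groups overlapped. Tnfrsf22 and Tnfrsf23, mouse decoy receptors for TRAIL, lie next to each other and to Tnfrsf26 in the RefSeq annotation. Tnfrsf22 measured 8.62 and 8.65 in control and 8.35 and 9.22 in irradiated arrays (log2). Tnfrsf23 measured 9.15 and 9.01 against 8.93 and 9.63. In both genes irradiated replicate 1 was the lowest and replicate 2 the highest of all 4 arrays.

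Tnfrsf26 measured 5.53 and 5.64 in control and 5.59 and 6.0 in irradiated arrays (log2), also highest on replicate 2. These genes are closely related in sequence, and probe sequences were not used here, so shared signal is possible and their values are not independent. Tnfrsf11b, osteoprotegerin, the soluble decoy of RANKL, measured 5.35 and 5.33 against 5.34 and 5.43, with a 95% interval of the log2 difference from −0.24 to 0.33.

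Ligands and receptors that bind each other were set side by side. Of 19 known pairs drawn from the members, 7 had differences of the same sign and 12 of opposite sign. The list of pairs is not complete, so these counts depend on its choice. It leaves out Tnfsf10 with its decoys Tnfrsf22 and Tnfrsf23, whose differences of 0.15 and 0.20 had the same sign as that of Tnfsf10. Tnfsf15 and its receptor Tnfrsf25 had the widest gap, at 1.005 and −0.41 (log2 difference). Tnfrsf1b was higher by 0.505 while its ligands Tnf and Lta had log2 differences of −0.02 and −0.15. Tnfsf8 and Tnfrsf8 had 0.525 and −0.17. Tnfsf10 and Tnfrsf10b were both positive, at 0.305 and 0.245, with overlapping groups in each. Of the 40 members, 23 had a difference smaller than its standard error, so the sign of a pair is a description.

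**Figure D3:**
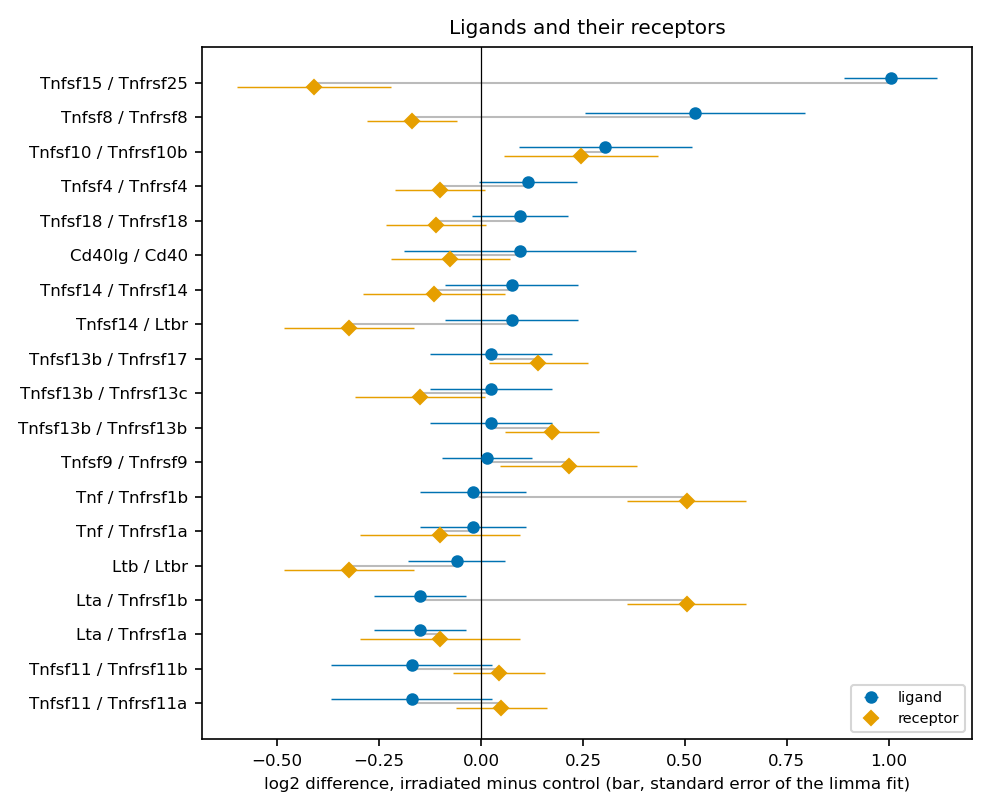
Log2 difference, irradiated minus control, of 19 ligand and receptor pairs, with circles for the ligand, diamonds for the receptor and bars for the standard error of the limma fit. The ligand Tnfsf15 at 1.005 and its receptor Tnfrsf25 at −0.41 lie furthest apart.

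Much of the variation in the family lay between the irradiated replicates. The irradiated arrays were further apart than the control arrays for 30 of 40 members, against 69.4% of all genes. The median distance between irradiated replicates was 0.335 for members and 0.20 for all genes (log2), while that between control replicates was 0.10 for both. Irradiated replicate 1 lay above the control mean for 26 members and replicate 2 for 18, against 46% and 44% of all genes. Replicate 2 lay below replicate 1 for 23 members, against 53.3% of all genes. It was the lowest of the 4 arrays for 17 members (38.4% of all genes), among them 3 of the 4 death domain receptors, and the highest for 13 (28.8%). Replicate 1 was the lowest for 6 members (23.6%) and the highest for 14 (22.9%).

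Leaving out irradiated replicate 1 changed the counts. Without irradiated replicate 1, 5 members were called higher (Tnfrsf1b, Tnfrsf22, Tnfsf15, Tnfsf8 and Traf1) and 1 lower (Tnfrsf25). The same fit called 4.54% of all genes higher and 3.28% lower. With 1 irradiated array its spread comes from the control arrays alone, which lay closer together than the irradiated ones, and the lone array is assumed to vary like them. Without irradiated replicate 2, Tnfsf15 and Traf1 were the members called, with 2.02% of all genes called higher. The same 2 members were called without control replicate 1 or 2, with 1.05% and 1.13% of all genes called higher.

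**Figure D4:**
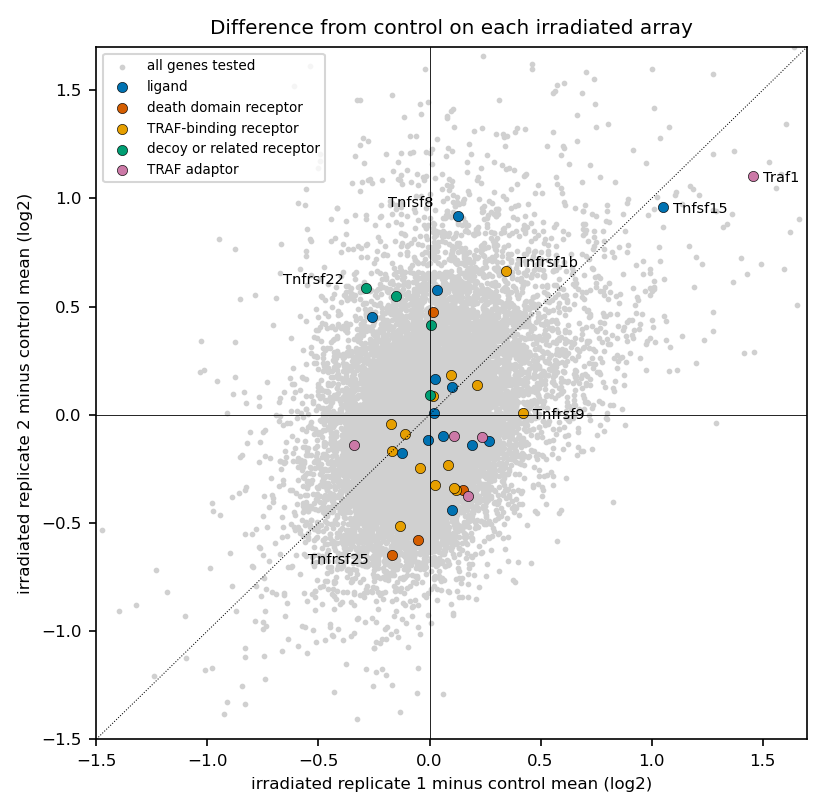
Difference from the control mean (log2) on irradiated replicate 1 (horizontal axis) and replicate 2 (vertical axis) for all genes tested in grey and for the members coloured by role; the dotted line marks equal differences, and some grey genes lie beyond the axes. Traf1 (1.455 and 1.105) and Tnfsf15 (1.05 and 0.96) are high on both replicates, whereas Tnfsf8 and Tnfrsf22 are high on replicate 2 alone.

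Other genes of the pathway were read from a list of adaptors, kinases, ubiquitin enzymes and sheddases that holds no member. Of 46 measured genes, 3 were called higher and 0 lower, against 1.7% and 0.672% of all genes. At an unadjusted p under 0.05 in limma, 8 were higher and 1 lower, against 5.21% and 5.1%. The median log2 difference of the list was 0.0125, against −0.03 for all genes. Tnfaip2, a TNF-induced gene, measured 10.77 and 10.69 in control and 11.74 and 12.15 in irradiated arrays, with a log2 difference of 1.215 ± 0.167 (standard error; limma adjusted p = 0.241). Birc3, which encodes the ubiquitin ligase cIAP2 that binds TRAF1 and TRAF2, measured 7.20 and 7.28 against 7.80 and 7.91. The log2 difference of Birc3 was 0.615 ± 0.12 (standard error; adjusted p = 0.301 in limma).

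Ripk3, the kinase of necroptosis, measured 8.99 and 9.0 in control and 9.80 and 9.53 in irradiated arrays (log2). The log2 difference of Ripk3 was 0.67 ± 0.14 (standard error; adjusted p = 0.318 in limma). Mlkl, the effector that RIPK3 phosphorylates, measured 8.40 and 8.41 against 9.0 and 8.65, and Tradd, the death domain adaptor of TNF receptor 1, 8.21 and 8.18 against 8.62 and 8.44. Mlkl and Tradd were higher on both irradiated arrays without reaching 1.5-fold. So were Birc2, Adam17 and Adam10, with log2 differences of 0.35, 0.305 and 0.345. Fadd, Casp8 and Cflar had 0.225, 0.175 and −0.015 and did not pass the unadjusted limit in limma. Rnf31, the catalytic subunit of the linear ubiquitin ligase, was the 1 lower gene, at 9.03 and 8.81 against 8.67 and 8.40. Tnfaip3, the feedback inhibitor A20, had a log2 difference of −0.135 with overlapping groups.

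The superfamily also holds genes whose symbols do not carry the family name, and 10 of these were measured. By the rule that called 1.7% of all genes higher and 0.672% lower, 1 of the 10 was called higher and 0 lower. Ngfr, the p75 neurotrophin receptor, was the 1 called, with 9.21 and 9.10 in control and 10.22 and 9.59 in irradiated arrays (log2), a difference of 0.75 (limma unadjusted p = 0.0172 and adjusted p = 0.431). Fas, the classic death receptor, measured 4.98 and 5.04 against 5.11 and 5.79, so that replicate 2 carried its difference of 0.44. Fasl, Cd27 and Cd70 had log2 differences between −0.17 and −0.13.

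Markers of cells that the ascites could also hold were read on the same arrays. Markers of trophoblast and simple epithelium were read too, whose keratins were bright and need not come from added cells. The rule called 1.7% of all genes higher and 0.672% lower, and the counts of each list stand against these shares. Of 10 neutrophil markers, 6 were called lower and 0 higher, and the sum of their linear intensities was 749.1 and 908.1 in control and 452.7 and 456 in irradiated arrays. Of 9 pan-leukocyte genes, 2 were called higher (Lcp1 and Arhgdib) and 2 lower (Cd52 and Srgn), with sums of 5263 and 5792 against 6787 and 8123. Lcp1 and Arhgdib are the brightest of this list and carry the higher sums, while 6 of its 9 differences were negative, with a median of −0.105 (log2). Of 10 macrophage markers, 1 was called higher (Mrc1) and 0 lower, with sums of 1181 and 1198 against 1271 and 1182. Cd68 is the brightest of this list and weighs most in the sums. Of the 10 differences, 7 were negative, with Csf1r (−0.52) and Mertk (−0.345) lower on both irradiated arrays. Lyz2 (0.57, log2 difference) was higher on both.

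The T cell markers summed to 388.1 and 378.8 in control and 386.2 and 333.5 in irradiated arrays, and 0 of 9 were called. B cell markers summed to 265.6 and 274.4 against 266.2 and 240, with 0 of 7 called. None of the 6 NK cell, 7 dendritic cell or 6 mesothelial markers was called (0 in each list). Of 11 markers of trophoblast and simple epithelium, 4 were called lower (Krt18, Krt7, Krt19 and Epcam), with sums of 42580 and 42120 in control and 34900 and 22780 in irradiated arrays. Krt8, Krt18, Krt7 and Krt19 are the brightest of this list and carry the sums. Of its 11 differences, 8 were negative and 3 positive. Eomes (0.365) and Gata3 (0.32, log2 differences) were higher on both irradiated arrays. Array intensities have no 0 level, so no marker could be called absent. Most neutrophil markers and some epithelial, pan-leukocyte and macrophage markers thus moved with the groups in which Traf1, Tnfsf15 and Tnfrsf1b differed. The part of these markers in those differences was not tested.

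Several members are neighbours among protein-coding genes of that annotation, which the naming rule did not use. Tnfsf15 and Tnfsf8 had log2 differences of 1.005 and 0.525. The cluster of Ltb, Tnf and Lta had −0.06, −0.02 and −0.15. Tnfrsf1b and its neighbour Tnfrsf8 differed in sign, at 0.505 and −0.17, while Tnfrsf4 and Tnfrsf18 had −0.10 and −0.11, and Tnfsf4 and Tnfsf18 had 0.115 and 0.095.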

How the data were processed

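Total RNA of 2 control and 2 irradiated samples was measured on one-colour arrays. The deposited values are log2 probe set intensities made by the authors with RMA, per the submitters' processing notes, which give no version. A build and an annotation for it were not given in the sources used here. Because RMA equalizes the distributions of the arrays, a shift shared by most genes is lost, and differences of dim genes are understated. The annotation gave 1 symbol to 21789 of 35556 rows and several to 1621, leaving 12146 unnamed here, and 0 columns of other samples were present. Symbols were updated by Entrez identifier through the RefSeq table of GRCm38.p6.

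Per gene, the brightest probe set by the mean of all 4 arrays was kept. The group difference was fitted by limma 3.58.1 under R 4.3.3 (lmFit, eBayes without trend, two-sided, Benjamini-Hochberg over 19938 genes), without a block. The procedure was tested on simulated data with the same spread in both groups. The wider spread of the irradiated arrays was not simulated, so that test does not cover it. The intervals are the limma estimate with 2 residual and 3.48 prior degrees of freedom, at 95%. The replicate numbers correlated at 0.068 in their deviations over genes, so they were not treated as pairs. Values on every array are given for members with an unadjusted p under 0.05, for a fixed set of well-known members and for called genes of the signalling list; the members nearest the limits are named too, and other genes named with values were chosen after their values were seen. The ligand and receptor pairs and the promoter motifs were also set then. Members and lists were chosen with earlier results of these data known. Alternatives covered filters, scaling, probe set choice, the block, the variance model, the fold and each array left out.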

Additional observations from a re-analysis of the deposited data

How the results depend on the processing

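Traf1 and Tnfsf15 remained called higher under every alternative run with the 1.5-fold limit (with a trend in the variance, unadjusted p = 0.000307 and 0.000145 in limma), and 0 members passed the adjusted threshold in limma under any, against 3 at an unadjusted p under 0.05. A filter that dropped the dimmer genes, split at their median level, kept 18 members, of which 3 lay above and 3 below the controls on both irradiated arrays, with a median log2 difference of −0.0875. At a limit of 2-fold, 2 members (Traf1 and Tnfsf15) and 1 gene of the signalling list were called higher. With each array left out in turn, members called higher numbered 2 to 5 (1.05% to 4.54% of all genes) and lower 0 to 1 (0.532% to 3.28%), members with both groups apart 12 to 20 higher (26.2% to 36.1%) and 9 to 20 lower (34.4% to 46.6%), the median ran from −0.095 to 0.03, and the signalling list gave 2 to 3 higher and 0 to 1 lower. Counts of groups apart are higher with 3 arrays, since fewer values must separate, and the cause was otherwise not tested. With the replicate number as a block, 2 members were called higher and 0 lower, and the block changed no call of a member. The block gave adjusted p = 0.57 in limma for Traf1 and for Tnfsf15. Quantile normalization and centring left the calls at 2 higher and 0 lower. Shares of all genes are not given for the filter, the 2-fold limit, the block or the scalings, so these counts cannot be set against a background. Of 233 values of 22 named genes under alternatives, 223 stayed within 1 SD or kept their side of an unadjusted p of 0.05, 2 lost it (Tnfrsf1b without either control array, at log2 differences of 0.51 and 0.50 against 0.505), 5 gained it, 3 moved by over 1 SD and 0 turned sign after being called. Signal over background was not part of the deposited values used here, and 22 of 40 members were dimmer than the median gene.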
